A study of Homo sapiens with 10 samples.

Results

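AKAP12 and the 9 other A-kinase anchoring proteins named below were followed in RNA-seq of U266, a human plasma cell line long established from multiple myeloma. The 10 genes were taken by name from 60574 genes in the deposited count table. They are AKAP12, AKAP1, AKAP5, AKAP7, AKAP8, AKAP8L, AKAP9, AKAP10, AKAP11 and AKAP13. AKAP12 was chosen by its much lower counts with the EFNB2 guide in these same libraries, so its own difference is described here without a test. The other 9 entered by their gene name and were tested.

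All cells carried dCas9-VPR, a Cas9 that cannot cut fused to transcriptional activators, delivered by lentivirus. In 5 libraries the cells also carried the EFNB2 gRNA, which points the activator to the start of EFNB2, and in 5 libraries a scrambled control gRNA. Both groups were kept in puromycin and blasticidin, and the labels give no other treatment. The libraries of each guide carry the letters A to E. Whether they come from separate cultures or transductions is not given in the sources used here, so the p-values speak to the spread among libraries alone, which may be technical. In bulk RNA fewer cells of a kind and less RNA per cell cannot be told apart.

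A-kinase anchoring proteins hold protein kinase A, the kinase switched on by cyclic AMP, at chosen places in the cell. Most carry a short helix that grips the regulatory subunits of the kinase, together with a targeting region for the membrane, the mitochondrion, the centrosome or the nucleus. AKAP12, also called gravin or SSeCKS, sits at the plasma membrane and the cytoskeleton and also binds protein kinase C and calmodulin. It is known as a gene that many tumours express at low levels.

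Total counts were 47268072 to 54761361 per library with the EFNB2 gRNA and 52142380 to 56513548 with the control gRNA. Levels are given as CPM, read counts scaled to the size of the library. EFNB2 itself averaged 1.21 ± 0.198 CPM with the EFNB2 gRNA and 0.119 ± 0.0509 CPM with the control gRNA (SD, n = 5 each), a fitted 9.96-fold difference. None of the 9 plasma cell markers was under 1 CPM in every library, while 3 of 5 T cell, 4 of 5 myeloid, 3 of 5 stromal and 4 of 5 epithelial markers were. Summed over each list, plasma cell markers had 5510.0 to 5790.0 CPM with the EFNB2 gRNA and 5800.0 to 6590.0 CPM with the control gRNA, T cell markers 3.58 to 4.23 and 3.85 to 5.67 CPM in the same order, myeloid markers 2.42 to 3.4 and 2.06 to 2.58 CPM, stromal markers 25.5 to 30.0 and 20.2 to 27.3 CPM, and epithelial markers 1.78 to 2.45 and 1.74 to 2.45 CPM. The sum for plasma cells was carried by SDC1 and JCHAIN and hides a split, since 4 of the 9 markers rose and 3 fell. By edgeR 77.8% passed an adjusted p of 0.05, against 45.4% of all tested genes, or 54.4% of those averaging 1 log2 CPM or more. SDC1 had a log2 difference of −0.51 and CD38 one of 2.17, both named after their values were seen. The part of these lists in the results was not tested. Mitochondrial genes took 3.95 to 4.17% of counts with the EFNB2 gRNA and 3.33 to 4.53% with the control gRNA. The control A library stood apart for several of the anchors. It was the lowest of the 5 control libraries for AKAP12, AKAP9, AKAP10, AKAP11 and AKAP13 and the highest for AKAP8 and AKAP8L. Values without the A libraries are therefore given where they differ.

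The genomic windows around the starts of AKAP12 are shown first, since the gene was close to silent with one guide and well expressed with the other. AKAP12 lies on chromosome 6, plus strand, from 151239967 to 151358559 (GRCh38). RefSeq (GRCh38.p14) gives it 3 separate start sites, and each window runs from 250 bases before to 50 bases after the start, with every CG pair in capitals.
AKAP12 first start, chr6:151239717-151240016, plus strand: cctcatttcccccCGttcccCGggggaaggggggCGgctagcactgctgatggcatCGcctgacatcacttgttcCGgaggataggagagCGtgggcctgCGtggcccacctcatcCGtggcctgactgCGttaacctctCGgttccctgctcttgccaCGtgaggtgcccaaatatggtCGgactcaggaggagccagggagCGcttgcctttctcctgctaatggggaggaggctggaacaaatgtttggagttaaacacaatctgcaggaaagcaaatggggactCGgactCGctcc
AKAP12 second start, chr6:151325281-151325580, plus strand: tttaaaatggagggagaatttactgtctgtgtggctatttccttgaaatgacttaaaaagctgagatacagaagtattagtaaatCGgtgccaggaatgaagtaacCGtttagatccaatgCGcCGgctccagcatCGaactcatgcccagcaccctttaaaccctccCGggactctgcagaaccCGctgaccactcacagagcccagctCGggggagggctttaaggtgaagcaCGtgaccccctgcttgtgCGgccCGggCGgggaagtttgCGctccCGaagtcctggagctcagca
AKAP12 last start, chr6:151341456-151341755, plus strand: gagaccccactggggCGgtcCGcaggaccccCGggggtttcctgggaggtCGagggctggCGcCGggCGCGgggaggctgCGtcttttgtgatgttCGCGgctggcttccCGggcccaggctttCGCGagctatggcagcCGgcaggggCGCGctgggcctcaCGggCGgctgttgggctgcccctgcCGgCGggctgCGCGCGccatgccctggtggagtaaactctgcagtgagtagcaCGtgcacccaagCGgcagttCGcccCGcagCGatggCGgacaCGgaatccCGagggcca

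The first window held 15 CG pairs, the second 14 and the last 32. The median over 35116 RefSeq windows of this length was 14, so the last start of AKAP12 was the CG-rich one. GC content was 59.7%, 53.3% and 72.3% in the same order, against a median of 58.7% over all windows. GENCODE 29 lists coding transcripts of 1782 codons near the first start, 1684 near the second and 1677 near the last. Counts per gene do not tell which start was used. No AKAP12 window held the letters TGACG, the core of the cyclic AMP response element, on either strand, and 24.6% of all windows did. The full element TGACGTCA, which contains that core, was in 1.85% of all windows and in no window of the 10 genes that was read. AKAP1, AKAP7, AKAP8 and AKAP9 each had at least 1 window with the core letters. These matches describe letters only.

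For contrast, AKAP5 is an anchor that was higher with the EFNB2 gRNA, and it has 1 start in this table. Its window, printed the same way, held 39 CG pairs at a GC content of 78.7% and did not hold the core letters.
AKAP5, chr14:64465249-64465548, plus strand: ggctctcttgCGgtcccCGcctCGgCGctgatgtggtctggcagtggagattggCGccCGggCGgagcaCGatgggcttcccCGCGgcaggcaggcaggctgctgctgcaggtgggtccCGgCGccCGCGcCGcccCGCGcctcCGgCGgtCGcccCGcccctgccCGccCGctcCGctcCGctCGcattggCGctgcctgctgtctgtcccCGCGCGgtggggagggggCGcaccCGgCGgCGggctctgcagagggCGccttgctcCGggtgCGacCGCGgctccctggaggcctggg

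AKAP12 was close to absent with the EFNB2 gRNA and moderately expressed with the control gRNA. Libraries A to E held 12, 17, 6, 5 and 4 reads of AKAP12 with the EFNB2 gRNA, against 1367, 1768, 1821, 1922 and 1978 with the control gRNA. In CPM these were 0.22, 0.328, 0.125, 0.102 and 0.079 with the EFNB2 gRNA, against 25.8, 34.3, 32.6, 35.3 and 36.0 with the control gRNA. All 5 libraries with the EFNB2 gRNA were low, and the groups were far from overlapping. The means were 0.171 ± 0.103 CPM with the EFNB2 gRNA and 32.8 ± 4.10 CPM with the control gRNA (SD, n = 5 each), and the fitted log2 difference, EFNB2 gRNA over control gRNA, was −7.54 (SE 0.17).

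Over all libraries of a guide, AKAP12 had 44 reads with the EFNB2 gRNA and 8856 with the control gRNA. Adjusted for library size, 0.529% of the control level was left, with an exact 95% interval of 0.384 to 0.71% that covers counting error only. Its level stood at percentile 0.639 of the 17834 tested genes with the EFNB2 gRNA and at percentile 66.0 with the control gRNA. AKAP12 passed the low-count filter through its control reads, so its low percentile with the EFNB2 gRNA follows in part from the filter. Of the tested genes, 1 had a lower fitted log2 difference. These values led to the choice of AKAP12 and are given as a description. The GENCODE 29 annotation listed no gene with counts overlapping AKAP12.

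**Figure D1:**
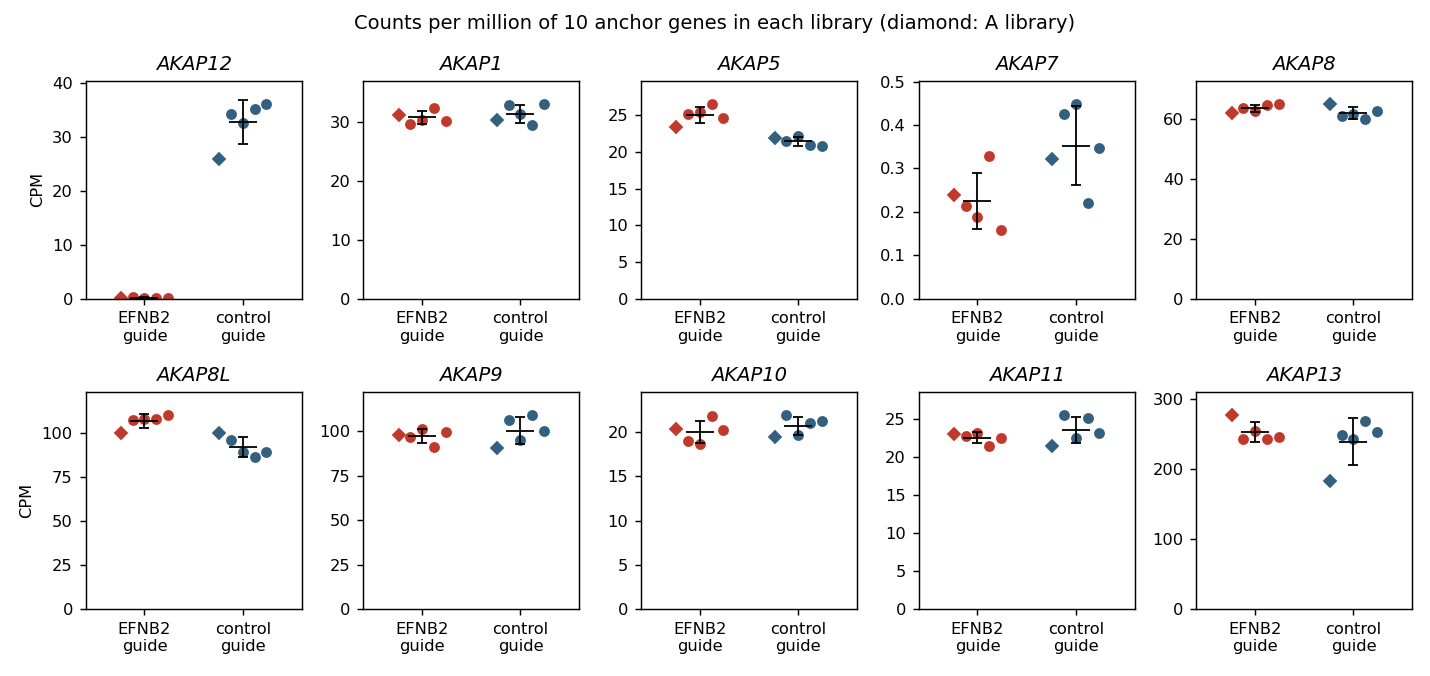
CPM (vertical axis, from 0, a scale per gene) of the 10 anchor genes in each library, with the EFNB2 guide on the left and the control guide on the right of each panel; bars are the mean and SD of 5 libraries and diamonds mark the A libraries. AKAP12 lies between 0.079 and 0.328 CPM with the EFNB2 guide and between 25.8 and 36.0 CPM with the control guide, while the groups of the other 9 genes overlap or lie side by side.

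The other 9 anchors passed the low-count filter and showed no comparable difference. By edgeR's quasi-likelihood test 2 of 9 (22.2%) passed an adjusted p of 0.05, both higher with the EFNB2 gRNA, and 0 of 9 were lower. Over all 17834 tested genes 45.4% passed, 22.8% higher and 22.6% lower, so the share of these 9 anchors that passed was below the background. The groups did not overlap for the same 2 of 9 anchors, against 30.3% of all tested genes. Of the 8 anchors other than AKAP12 that averaged 1 log2 CPM or more, 2 passed, against 54.4% of all genes at that level. The median log2 difference was −0.03 over the 9 anchors and 0.007 over all tested genes. At an unadjusted p under 0.05, 1 anchor was lower in edgeR, in DESeq2 and in limma-voom. These counts hold for the 9 genes alone. In the list of further anchors below, AKAP3 (log2 difference −0.46) and AKAP6 (−0.43) fell, PALM2AKAP2 (0.34) rose and AKAP17A did not pass.

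AKAP5, known as AKAP79, holds the kinase at the plasma membrane beside protein kinase C and the phosphatase calcineurin, and it rose. It had 23.5, 25.1, 25.4, 26.5 and 24.6 CPM in libraries A to E with the EFNB2 gRNA, against 21.8, 21.5, 22.15, 20.9 and 20.75 CPM with the control gRNA. Every library with the EFNB2 gRNA was above every control library. The change was 1.17-fold, a log2 difference of 0.22 (SE 0.04) with an adjusted p of 2.07e-04 in edgeR. AKAP5 lies on chromosome 14 from 64465499 to 64474503, where it overlaps ZBTB25 on the opposite strand. The 2 genes held 12114 and 12981 counts over the 10 libraries, and whether counting used strand is not given in the sources used here, so reads of the pair may be mixed.

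AKAP7 is a small anchor of the plasma membrane, and it was barely expressed. It had 13, 11, 9, 16 and 8 reads with the EFNB2 gRNA, against 17, 22, 25, 12 and 19 with the control gRNA. In CPM these were 0.239, 0.2125, 0.188, 0.328 and 0.158 with the EFNB2 gRNA, against 0.321, 0.426, 0.448, 0.22 and 0.346 with the control gRNA. Most control libraries were higher, but the groups overlapped through their D libraries. The log2 difference of −0.64 (SE 0.26) had an unadjusted p of 0.0266 and an adjusted p of 0.057 in edgeR. It passed when either D library was left out, with −0.81 and an adjusted p of 0.0285 without the EFNB2 gRNA D library, and −0.77 and 0.0256 without the control D library. AKAP7 is also on chromosome 6, from 131125627 to 131283532.

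AKAP1 ties the kinase to the outer mitochondrial membrane, and its gene lies on chromosome 17 from 57085246 to 57121344. It had 31.15, 29.8, 30.4, 32.4 and 30.2 CPM in libraries A to E with the EFNB2 gRNA, against 30.4, 32.9, 31.4, 29.5 and 33.0 CPM with the control gRNA. The ranges overlapped almost entirely, with a fold difference between 0.929 and 1.03 at 2 SE on either side (adjusted p 0.558, edgeR). AKAP10, a mitochondrial anchor that grips both classes of regulatory subunit, had 20.4, 19.0, 18.65, 21.8 and 20.15 CPM with the EFNB2 gRNA, against 19.4, 21.9, 19.7, 21.0 and 21.3 CPM with the control gRNA. Its fold difference lay between 0.905 and 1.03 at 2 SE (adjusted p 0.457, edgeR), and its groups overlapped as well. It lies on the same chromosome from 19904302 to 19977828.

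The nuclear anchors AKAP8 and AKAP8L are neighbours on the minus strand of chromosome 19. AKAP8L spans 15380050 to 15418988 and ends 262 bases before AKAP8 starts, while AKAP8 spans 15353385 to 15379787. AKAP8L, a partner of RNA helicase A, rose with the EFNB2 gRNA. It had 100.3, 107.8, 108.0, 108.0 and 110.4 CPM in libraries A to E with the EFNB2 gRNA, against 100.1, 96.1, 89.3, 86.6 and 89.6 CPM with the control gRNA. The groups were separated only by the small gap between the 2 A libraries. The change was 1.16-fold, a log2 difference of 0.21 (SE 0.04) with an adjusted p of 3.76e-04 in edgeR.

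AKAP8, which binds chromatin and takes part in its condensation, did not pass. It had 62.0, 63.7, 62.4, 64.5 and 64.7 CPM with the EFNB2 gRNA, against 64.7, 60.9, 61.6, 59.7 and 62.4 CPM with the control gRNA. The highest control library was A, and the groups overlapped. The log2 difference was 0.04 (SE 0.03, adjusted p 0.304 in edgeR). Without both A libraries, an exclusion chosen after seeing the data, it was 0.06 with an adjusted p of 0.0419, so 3 of 9 anchors then passed.

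AKAP9 is a very large anchor of the centrosome and the Golgi, on chromosome 7 from 91940862 to 92110673. It had 97.7, 96.8, 100.9, 90.95 and 99.6 CPM with the EFNB2 gRNA, against 90.8, 106.3, 95.2, 109.0 and 100.2 CPM with the control gRNA. The control libraries spread more widely and enclosed all 5 others, and the log2 difference was −0.05 (SE 0.05, adjusted p 0.445 in edgeR). AKAP11, which binds glycogen synthase kinase 3 and is removed by autophagy, had 23.0, 22.7, 23.1, 21.4 and 22.5 CPM with the EFNB2 gRNA, against 21.5, 25.5, 22.45, 25.1 and 23.2 CPM with the control gRNA. Its groups overlapped too, at a log2 difference of −0.06 (SE 0.05, adjusted p 0.303 in edgeR). It lies on chromosome 13 from 42271477 to 42323261.

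AKAP13, also called AKAP-Lbc, is a large scaffold and had the most reads of the 10 genes. It lies on chromosome 15 from 85380603 to 85749358. It had 277.7, 243.5, 254.3, 243.7 and 246.4 CPM with the EFNB2 gRNA, against 182.9, 249.0, 244.2, 268.9 and 253.8 CPM with the control gRNA. The control A library was the lowest and the EFNB2 gRNA A library the highest of all. The log2 difference was 0.08 (SE 0.08, adjusted p 0.432 in edgeR). Leaving out the control A library turned its sign, to −0.006 with an adjusted p of 0.913.

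**Figure D2:**
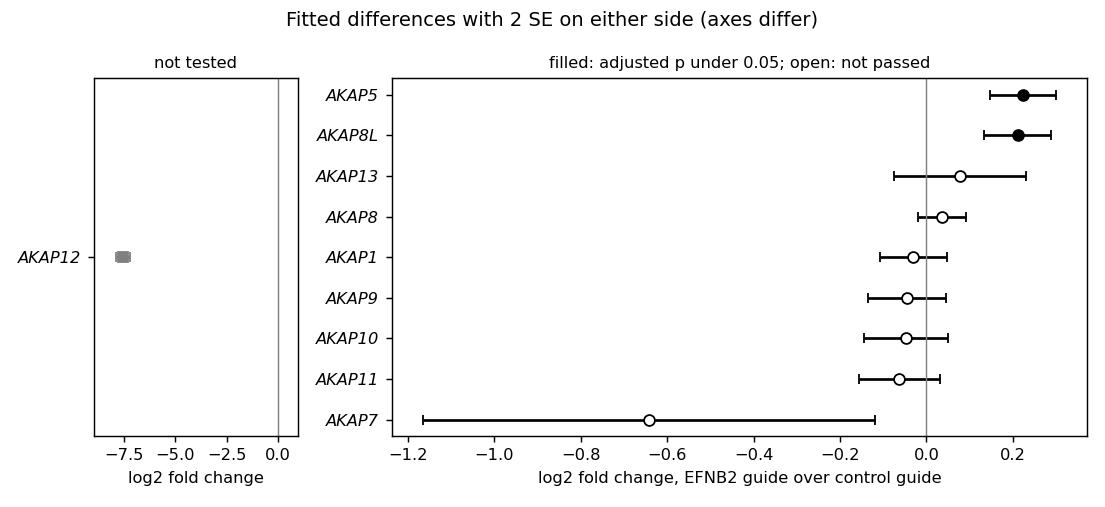
Fitted log2 fold change (horizontal axis), EFNB2 guide over control guide, with 2 SE on either side; AKAP12, which was not tested, has an axis of its own on the left. Filled points passed an adjusted p of 0.05: AKAP5 at 0.22 and AKAP8L at 0.21, while AKAP12 lies at −7.54 and AKAP7, with few reads, has the widest interval of the other 9.

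Levels between genes were compared per length, as CPM per kilobase of exon (RPKM). With the control gRNA the order by mean, from the top, was AKAP8L at 18.2 RPKM, AKAP8 at 14.4, AKAP13 at 11.8, AKAP1 at 5.82, AKAP9 at 5.51, AKAP10 at 4.26, AKAP12 at 3.75, AKAP5 at 2.85, AKAP11 at 2.37 and AKAP7 at 0.0802. Some neighbours in that order were not separated by their spread over 5 control libraries. AKAP1 and AKAP9 overlapped, at 5.46 to 6.12 RPKM and 4.99 to 5.99 RPKM. AKAP10 and AKAP12 overlapped as well, at 4.00 to 4.51 RPKM and 2.95 to 4.12 RPKM. The lowest control library of AKAP12, at 2.95 RPKM, met the highest of AKAP5.

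With the EFNB2 gRNA AKAP12 was last of the 10 by mean, at 0.0196 ± 0.0118 RPKM, below AKAP7 at 0.0512 ± 0.0147 RPKM (SD, n = 5 each), though their ranges overlapped. The other 9 kept their order of means. AKAP12 made up 0.013 to 0.0548% of the summed RPKM of the 10 anchors with the EFNB2 gRNA, against 4.44 to 5.89% with the control gRNA. The sum over the other 9 was 69.1 ± 0.541 RPKM with the EFNB2 gRNA and 65.3 ± 1.46 RPKM with the control gRNA (SD, n = 5 each). With AKAP12 included the sums were 69.1 ± 0.53 RPKM with the EFNB2 gRNA and 69.0 ± 1.83 RPKM with the control gRNA, and neither sum was tested.

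**Figure D3:**
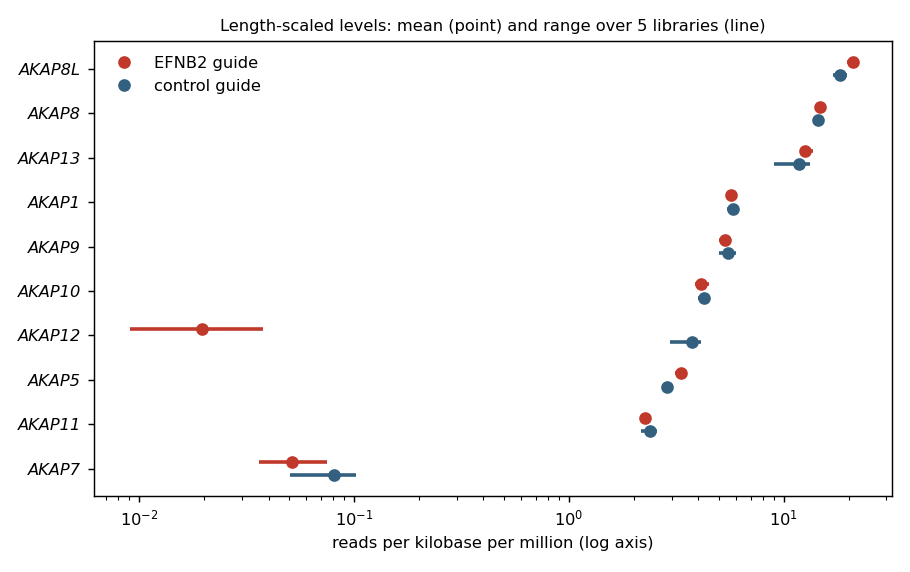
Length-scaled levels (RPKM, log axis) of the 10 anchors in the order of their control means, with the EFNB2 guide above the control guide for each gene; points are means and lines the range over 5 libraries. AKAP12 lies at 0.0196 RPKM with the EFNB2 guide and at 3.75 RPKM with the control guide. AKAP7 lies at 0.0512 and 0.0802 RPKM in the same order, with ranges that overlap, and the remaining genes lie near their control values.

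The neighbours of AKAP12 on chromosome 6 showed small differences. Of 10 listed neighbours 6 were tested, of which 2 (33.3%) fell and 0 rose by edgeR. Of all tested genes 22.6% fell, and 54.4% of those averaging 1 log2 CPM or more were called in either direction. Of the neighbours 0 were higher at an unadjusted p under 0.05, and 0 were higher in DESeq2 or limma-voom. ZBTB2, a zinc finger repressor which lies 5.6 kb after AKAP12, averaged 48.9 ± 1.18 CPM with the EFNB2 gRNA and 53.0 ± 1.29 CPM with the control gRNA (SD, n = 5 each), a log2 difference of −0.12 (SE 0.03, adjusted p 0.00303). MTHFD1L, a mitochondrial enzyme of folate metabolism 138.1 kb before AKAP12, averaged 55.2 ± 1.53 CPM with the EFNB2 gRNA and 63.15 ± 2.10 CPM with the control gRNA, a log2 difference of −0.19 (SE 0.03, adjusted p 7.98e-05). Both differences were a small fraction of that of AKAP12. RMND1 and ARMT1 had log2 differences of −0.08 and 0.02 and did not pass. Without both A libraries RMND1 was −0.11 with an adjusted p of 0.0266, so 3 neighbours were then lower. ESR1, the estrogen receptor gene, had 0.17 and SYNE1, a nuclear envelope protein, −0.001, and neither passed.

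**Figure D4:**
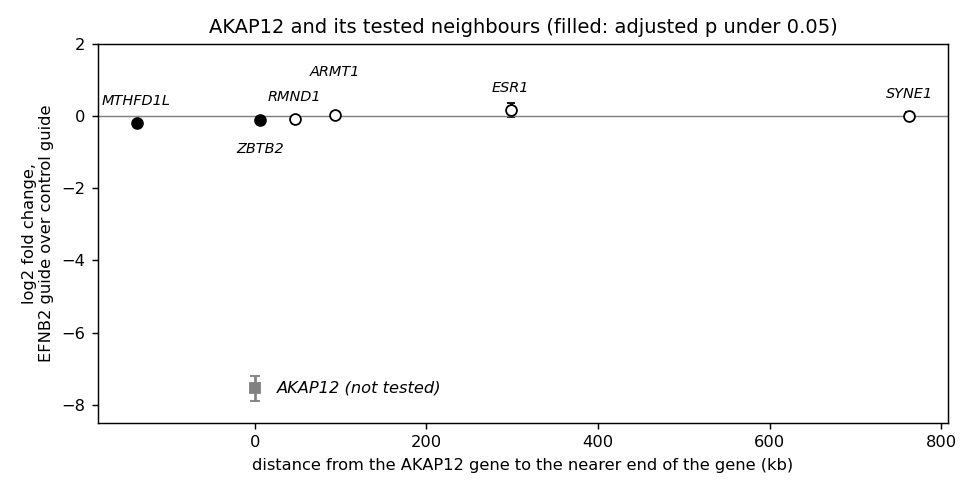
Fitted log2 fold change (vertical axis), EFNB2 guide over control guide, against the distance in kb from AKAP12 to the nearer end of each tested neighbour on chromosome 6; lines are 2 SE and filled points passed an adjusted p of 0.05. AKAP12 lies at −7.54 while the 6 neighbours lie between −0.19 and 0.17.

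Across the 10 libraries, log2 CPM was compared with that of AKAP12 for the 12250 other genes averaging 1 log2 CPM or more. The most alike were CDK6, CKAP4, HSPG2, ALOX5 and IGFBP6, after gene models with clone-type, LOC or LINC names were left out. Their Pearson r ranged from 0.996 to 0.997, a description over libraries that share the 2 guides and therefore the same split. CDK6, a cell cycle kinase, averaged 4.25 ± 0.159 CPM with the EFNB2 gRNA and 9.74 ± 0.279 CPM with the control gRNA (SD, n = 5 each). ALOX5, the enzyme that begins leukotriene synthesis, averaged 9.04 ± 0.674 CPM with the EFNB2 gRNA and 19.7 ± 0.437 CPM with the control gRNA. All 5 were lower with the EFNB2 gRNA, by log2 differences of −1.04 to −1.32, far smaller than that of AKAP12.

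The partners and substrates of anchored kinase were then read from 107 genes in 9 lists, of which 80 were tested. With the EFNB2 gRNA 30 rose and 28 fell (72.5% of those tested), against 45.4% of all tested genes, or 54.4% of those averaging 1 log2 CPM or more. Their median log2 difference was 0.09, against 0.007 over all tested genes. The lists are described by counts and were not tested as sets.

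Transcripts of the kinase itself mostly fell. Of 8 genes for subunits and close relatives of protein kinase A 6 were tested, and 5 fell while 1 rose. The background was 22.6% lower and 22.8% higher over all tested genes, and 54.4% called among those averaging 1 log2 CPM or more. PRKACA, the main catalytic subunit, had 98.9, 94.1, 93.9, 95.0 and 95.0 CPM in libraries A to E with the EFNB2 gRNA, against 100.8, 103.6, 105.4, 105.4 and 103.3 CPM with the control gRNA. All libraries with the EFNB2 gRNA were below all controls, at a log2 difference of −0.12 (SE 0.02, adjusted p 8.10e-04). PRKACB, the second catalytic subunit, had 39.3, 38.0, 34.9, 37.4 and 36.5 CPM with the EFNB2 gRNA, against 46.8, 45.2, 46.6, 51.0 and 48.1 CPM with the control gRNA. Its groups did not overlap either, and its log2 difference was −0.35 (SE 0.04, adjusted p 2.44e-06).

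The type I regulatory subunits, which hold the catalytic subunits inactive until cyclic AMP binds, also fell. PRKAR1A averaged 140.9 ± 2.88 CPM with the EFNB2 gRNA and 160.3 ± 7.10 CPM with the control gRNA (log2 difference −0.19, adjusted p 1.29e-04). PRKAR1B averaged 44.6 ± 3.12 CPM with the EFNB2 gRNA and 53.4 ± 1.81 CPM with the control gRNA (log2 difference −0.26, adjusted p 1.57e-04), and it overlaps DNAAF5 on the opposite strand. The type II subunits are those that AKAP12 and most other anchors prefer. PRKAR2A fell, at 132.9 ± 6.865 CPM with the EFNB2 gRNA and 148.4 ± 6.52 CPM with the control gRNA (log2 difference −0.16, adjusted p 0.00281), with ranges that overlapped. PRKAR2B rose, at 2.46, 2.51, 2.49, 2.46 and 3.14 CPM in libraries A to E with the EFNB2 gRNA, against 1.57, 1.22, 1.41, 1.45 and 1.51 CPM with the control gRNA. Its log2 difference was 0.86 (SE 0.11, adjusted p 9.83e-06). Per length it stayed far below PRKAR2A, at 0.605 ± 0.0688 RPKM with the EFNB2 gRNA and 0.332 ± 0.0306 RPKM with the control gRNA, where PRKAR2A had 20.0 ± 1.03 RPKM and 22.3 ± 0.981 RPKM in the same order (SD, n = 5 each).

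The kinase inhibitor peptides PKIA and PKIG, which block the catalytic subunit, were both tested and both fell, against 22.6% of all tested genes. Among genes averaging 1 log2 CPM or more, 54.4% were called in either direction. PKIA averaged 15.6 ± 0.839 CPM with the EFNB2 gRNA and 21.5 ± 0.707 CPM with the control gRNA (log2 difference −0.46, SE 0.04, adjusted p 4.72e-07). PKIG averaged 15.55 ± 0.583 CPM with the EFNB2 gRNA and 17.4 ± 0.647 CPM with the control gRNA (log2 difference −0.16, SE 0.04, adjusted p 0.00544). It overlaps ADA on the opposite strand. PKIB had too few reads to be tested.

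Of 25 further proteins reported to bind the regulatory subunits 19 were tested, of which 3 rose and 8 fell (57.9% called, near the 54.4% of all genes averaging 1 log2 CPM or more), with a median log2 difference of −0.06. The largest rise was that of PDE4DIP, or myomegalin, an anchor of the centrosome and Golgi. It averaged 378.2 ± 4.05 CPM with the EFNB2 gRNA and 191.2 ± 9.74 CPM with the control gRNA (log2 difference 0.98, SE 0.03, adjusted p 2.40e-12). PALM2AKAP2, which includes the membrane anchor AKAP2, averaged 770.1 ± 20.7 CPM with the EFNB2 gRNA and 609.6 ± 26.4 CPM with the control gRNA (log2 difference 0.34, adjusted p 4.01e-07), and ACBD3, a Golgi protein, rose by 0.18. Those that fell included AKAP3, an anchor of sperm, at −0.46, RAB32, a small GTPase of mitochondria and lysosome-related organelles, at −0.43, and AKAP6, an anchor of the nuclear envelope in muscle, at −0.43. AKAP6 averaged 13.85 ± 0.953 CPM with the EFNB2 gRNA and 18.7 ± 1.035 CPM with the control gRNA (adjusted p 8.89e-06).

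Most of the tested genes around cyclic AMP synthesis rose. Of 15 adenylyl cyclases and stimulatory or inhibitory G protein subunits 9 were tested, and 6 rose while 1 fell. That is 77.8% called, against 45.4% of all tested genes (22.8% higher, 22.6% lower). Among the cyclases, ADCY5, ADCY9 and ADCY3 had log2 differences of 0.52, 0.42 and 0.26. ADCY3 averaged 319.8 ± 3.07 CPM with the EFNB2 gRNA and 267.7 ± 9.635 CPM with the control gRNA (adjusted p 1.00e-06), and it overlaps CENPO on the opposite strand. GNAI2, an inhibitory G protein subunit, fell by 0.12 on the log2 scale. GNAL, a stimulatory subunit named after its values were seen, averaged 7.55 ± 2.23 CPM with the EFNB2 gRNA and 0.103 ± 0.0315 CPM with the control gRNA. It overlaps CHMP1B on the same strand, a gene with many more counts, so its value is uncertain.

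Genes that break cyclic AMP down were split. Of 16 phosphodiesterases 7 were tested, and 4 rose while 3 fell, against 22.8% higher and 22.6% lower over all tested genes. PDE8A averaged 70.2 ± 3.13 CPM with the EFNB2 gRNA and 50.3 ± 1.001 CPM with the control gRNA (log2 difference 0.48, adjusted p 1.08e-08), and PDE3B rose by 0.15. PDE1B, PDE4A and PDE7A had log2 differences of −0.80, −0.40 and −0.17. PDE4A overlaps CDC37 on the opposite strand. PDE4D, named after its values were seen, averaged 3.26 ± 0.199 CPM with the EFNB2 gRNA and 0.341 ± 0.080 CPM with the control gRNA. Its log2 difference was 3.25 (SE 0.14, adjusted p 7.64e-11). PDE4D overlaps AC092343.1 on the opposite strand, with 919 counts for PDE4D and 558 for AC092343.1 over all libraries, so reads may be mixed. Of the exchange factors that cyclic AMP opens directly, RAPGEF3 fell at −0.23 (adjusted p 0.0203) and RAPGEF4 did not pass. RAPGEF3 did not pass without the EFNB2 gRNA B library (adjusted p 0.0578), the control B library (0.0623) or the control E library (0.0632), and it overlaps SLC48A1 on the opposite strand.

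CREB1, the transcription factor that the kinase phosphorylates, and its relatives ATF1 and CREM were slightly lower, at log2 differences of −0.08, −0.16 and −0.25. The coactivators CRTC1, CRTC2 and CRTC3, which are held in the cytoplasm until cyclic AMP releases them, were all higher, at 0.30, 0.19 and 0.46. CRTC3 averaged 46.0 ± 1.08 CPM with the EFNB2 gRNA and 33.5 ± 0.428 CPM with the control gRNA (adjusted p 3.33e-09). These 6 passed in edgeR, and CREBBP and EP300, the acetyltransferases they recruit, did not. That made 75.0% called, against 45.4% of all tested genes, or 54.4% of those averaging 1 log2 CPM or more. CREB1 passed narrowly (adjusted p 0.0285), as did CREM (adjusted p 0.0195). CREB1 no longer passed without any single one of the B, D or E libraries of either guide, with adjusted p between 0.0588 and 0.0891, nor with library totals alone (0.06) or without the low-count filter (0.0741). CREM did not pass without the EFNB2 gRNA C (adjusted p 0.0615) or E library (0.051) or the control C library (0.0622). CREB1 overlaps METTL21A on the opposite strand.

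Of 14 genes often used as readouts of CREB 13 were tested, of which 7 rose and 0 fell by edgeR. The share called was 53.8%, against 45.4% of all tested genes, of which 22.8% were higher and 22.6% lower. None was lower at an unadjusted p under 0.05, or in DESeq2 or limma-voom. Their median log2 difference was 0.53. JUNB, IRS2 and PER1, the readouts with the highest levels, named after their values were seen, did not pass in edgeR (adjusted p 0.232, 0.811 and 0.0664). They averaged 74.2, 36.0 and 20.2 CPM with the EFNB2 gRNA, against 70.6, 36.4 and 18.9 CPM with the control gRNA. RGS2, which speeds G protein inactivation, averaged 7.75 ± 0.439 CPM with the EFNB2 gRNA and 4.25 ± 0.152 CPM with the control gRNA (log2 difference 0.87, SE 0.06, adjusted p 2.16e-08). DUSP1, a phosphatase of MAP kinases, averaged 5.275 ± 0.298 CPM with the EFNB2 gRNA and 4.03 ± 0.363 CPM with the control gRNA (log2 difference 0.39, SE 0.08, adjusted p 6.64e-04). The nuclear receptors NR4A1 and NR4A3 and the coactivator PPARGC1A, named after their values were seen, had log2 differences of 1.55, 1.17 and 1.63 at levels of at most 2.05 CPM on average. Immediate early genes in this list, such as FOS and EGR1, also answer to signals other than cyclic AMP.

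**Figure D5:**
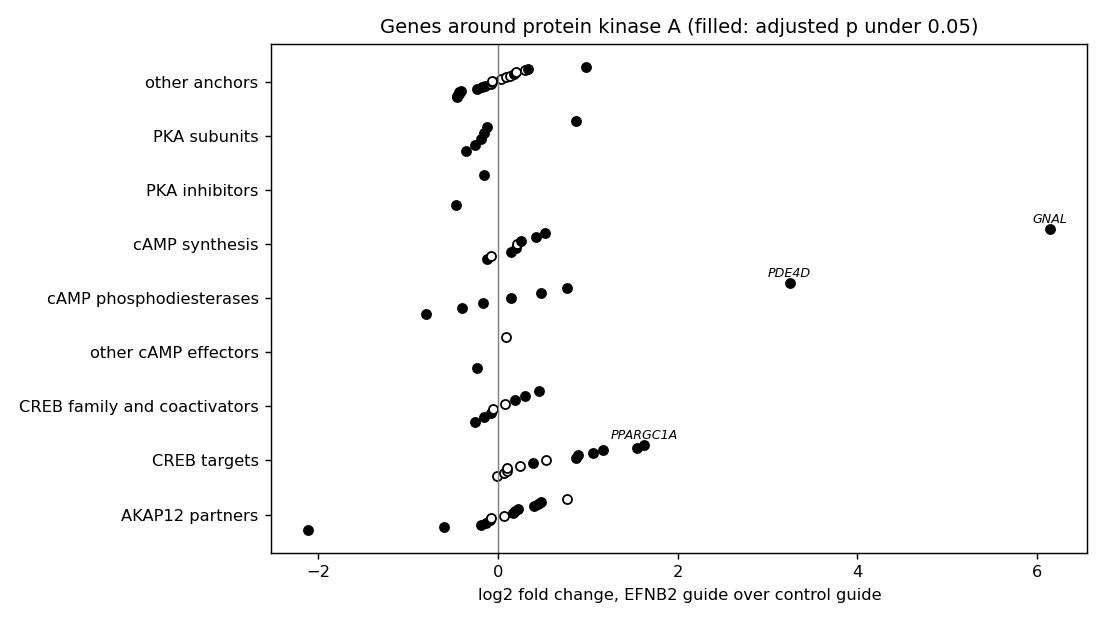
Fitted log2 fold change (horizontal axis), EFNB2 guide over control guide, of each tested gene in 9 lists around protein kinase A; filled points passed an adjusted p of 0.05. The kinase subunits lie left of 0 apart from PRKAR2B at 0.86, and the CREB readout genes lie to the right apart from IRS2 at −0.01; the 3 labelled genes were named after their values were seen.

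Proteins reported to bind AKAP12 made up the last list. Of 16 genes 14 were tested, and 6 rose while 5 fell. The 78.6% called compares with 45.4% of all tested genes, or 54.4% of those averaging 1 log2 CPM or more. PRKCD, a protein kinase C, averaged 17.55 ± 1.205 CPM with the EFNB2 gRNA and 26.7 ± 0.949 CPM with the control gRNA (log2 difference −0.60, SE 0.05, adjusted p 6.66e-08). CCND1, the cyclin D1 that AKAP12 can hold in the cytoplasm, had 1692 to 1761 CPM with the EFNB2 gRNA and 1873 to 1991 CPM with the control gRNA (log2 difference −0.19, adjusted p 1.35e-05). PPP3CC, a calcineurin subunit, and the mitotic kinases PLK1 and AURKA rose by 0.48, 0.45 and 0.40, while PPP3CB fell by 0.14.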

How the data were processed

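Per the labels, poly(A) RNA of U266 cells was made into strand-specific libraries and sequenced as read pairs. GRCh38, STAR 2.27a, DESeq2 and Partek appear, with no roles, in the submitters' processing notes. Neither the annotation nor the strand setting of counting is given in those sources. The authors deposited whole-number read counts per gene, which gave every main result. A second table the authors deposited holds a normalized signal. Its values are the counts plus a small constant times 1 factor per library, and it was used on the scale of log2(value + 1) as an alternative. Of the rows, 3 name no gene (at most 7.00e-05% of a library) and were left out.

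Of 60574 genes 17834 passed filterByExpr and were fitted with edgeR 4.0.16 (R 4.3.3), using TMM scaling and the quasi-likelihood test with no term but guide. P-values were adjusted over all tested genes by Benjamini and Hochberg, at a threshold of 0.05, and every adjusted p printed comes from this fit unless an alternative is named. CPM use TMM-scaled library sizes. RPKM divide these CPM by the GENCODE 29 union of exons, which may not be the authors' annotation. Positions and windows are from RefSeq (GRCh38.p14), with 9 of the 10 members matched in the window table; AKAP8L is named only. The position of ARMT1 is from GENCODE 29.

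The members and lists were chosen with earlier results of these data known. Named genes are the 10 members and all tested kinase subunits and AKAP12 neighbours. They also include up to 3 genes per direction and list, among genes that passed and averaged 1 log2 CPM or more. The last are the 5 genes most like AKAP12, with clone-named gene models left out. Genes outside this rule, among them GNAL, PDE4D, NR4A1, NR4A3 and PPARGC1A, were named after their values were seen, and some genes are not reported here. The steps were tested on simulated data. Alternatives were DESeq2 1.42.0, limma-voom (limma 3.58.1), RLE scaling, library totals alone, no filter, at least 1 CPM in 5 libraries, the deposited normalized values, the replicate letter as a block and leaving out each library. Leaving out both A libraries was added after seeing the data. A count of 0 allows up to 3 counts, and depth differed little between libraries. The exact interval for AKAP12 covers counting error only, while intervals of 2 SE from edgeR include the spread among libraries.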

Additional observations from a re-analysis of the deposited data

Results flagged for a closer look

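Among 108 groups of 5 libraries, a pair for each named gene, 14 held a highest or lowest library set far apart from the other 4, which is 13.0%. Chance flags about 1 in 20. Of these 12 were A libraries, 8 of them the control A library.

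Among the anchors, AKAP8L had 100.3 CPM in the EFNB2 gRNA A library, where the other 4 had 107.8 to 110.4 CPM. AKAP13 had 182.9 CPM in the control A library, where the other 4 had 244.2 to 268.9 CPM, and that library decided the sign of its difference. PALM2AKAP2 had 563.7 CPM in the control A library (other 4, 613.8 to 629.9 CPM), and AKAP3 had 4.864 CPM in the control E library (other 4, 3.93 to 4.073 CPM).

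Of the kinase subunits, PRKACA had 98.92 CPM in the EFNB2 gRNA A library (other 4, 93.94 to 95.0 CPM), the value nearest to the controls. PRKAR2B had 3.141 CPM in the EFNB2 gRNA E library (other 4, 2.457 to 2.511 CPM).

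In the remaining lists, the control A library was low for GNAI2 at 454.1 CPM (other 4, 491.5 to 498.2 CPM), for PDE7A at 348.0 CPM (other 4, 412.1 to 424.4 CPM) and for the neighbour ARMT1 at 47.7 CPM (other 4, 52.15 to 53.67 CPM). It was high for CRTC1 at 22.69 CPM (other 4, 18.97 to 19.67 CPM) and AURKA at 56.13 CPM (other 4, 49.23 to 50.53 CPM). PLK1 had 189.6 CPM in the EFNB2 gRNA A library (other 4, 214.0 to 220.7 CPM) and 167.9 CPM in the control A library (other 4, 150.7 to 153.1 CPM), so the A libraries were closer to each other than the other letters. PRKCD had 15.46 CPM in the EFNB2 gRNA A library (other 4, 17.67 to 18.47 CPM). The cause was not tested.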

How the results depend on the processing

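The log2 difference of AKAP12 stayed between −7.91 and −7.36 when each library was left out. It was −7.54 with the replicate letter as a block, and −4.86 on the deposited normalized values, where a pseudocount of 1 compresses genes with few reads. The number of other anchors higher was 2 under each alternative except without both A libraries, where it was 3. The number lower was 0 to 1 over the left-out libraries and 0 otherwise. The genes of the 9 lists gave 29 to 35 higher and 24 to 34 lower. Over all genes the calls stayed within 1.5 times the main counts. The share of calls that were higher was 50.3% with edgeR and TMM, and 43.1% on the deposited values.

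Signs turned for genes near 0. AKAP13 ranged from −0.006 to 0.126 over the left-out libraries and was −0.041 without both A libraries. ARMT1 ranged from −0.010 to 0.035 over the left-out libraries, and was −0.005 on the deposited values and −0.012 without both A libraries. SYNE1 ranged from −0.052 to 0.031 over the left-out libraries, and was 0.002 in limma-voom, 0.016 with library totals alone, 0.006 with the 1 CPM filter and 0.003 with the block. Of 53 single-gene results over 19 alternatives 970 values kept direction and call, 17 lost the call, 4 gained it and 15 changed sign. The lost calls were those of CREB1, CREM and RAPGEF3, with adjusted p up to 0.0908. With the block these were 0.0908 for CREB1, 0.0655 for CREM and 0.0568 for RAPGEF3. The cause was not tested.

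The correlations of same-letter libraries ran from −0.237 to −0.003, and no EFNB2 gRNA library correlated best with the control library of its own letter. Deviations from the mean of each guide were correlated, and such deviations offset one another, so they cannot settle whether the letters pair the samples. The block called 3425 genes higher and 3338 lower, against 4071 and 4028. With few reads, AKAP7 in both groups and AKAP12 with the EFNB2 gRNA are limited by counting error, and counts per gene cannot separate transcripts.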
